A study of Homo sapiens with 171 samples.

Results

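MDM2, MDM4, PPM1D and CCNG1 encode proteins that restrain p53, and their transcripts were followed in 46 ovarian cancer cell lines before and after cisplatin. They are 4 of the 18417 genes measured, chosen as the probe sets annotated to these symbols alone, and each has 1 probe set. Each line was measured untreated and after 48 h of cisplatin at that line's GI50, a concentration defined by growth inhibition whose value per line the labels do not give. The untreated cultures are listed at the start of the 48 h, so time in culture and the drug cannot be told apart in any change below. Cisplatin is a platinum compound that crosslinks DNA, and all cells grew in 96-well plates. Total RNA was hybridised to 171 one-colour Affymetrix arrays, which stand for 167 cultures (85 untreated, 82 treated) because 4 cultures have a repeat array that was averaged with the first.

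The arrays fall into 5 labelled batches. Batches 1, 2 and 3 hold 7, 6 and 5 lines with 3 cultures an arm (HeyA8 has 2 treated). The 28 lines otherwise seen in batches 4 and 5 have 1 culture an arm there. OVCA433 was measured in batches 2 and 4. The fits inside replicated lines and the F test of equal change over batches used its batch 2 change alone. Elsewhere its change is the weighted mean of both, also in the means of batch 2 and of batches 1 to 3, unless it is given per batch. The labels do not say that cultures were grown separately, so p-values here rest on how far these samples scatter, some of which can be technical. They show a related origin only through line names (Hey, HeyA8 and HeyC2, or A2780 and A2780cisR). C13 is paired with A2008 below from general knowledge that it was derived from that line, which the labels do not state. They give no p53 status, and no line was grouped by one. Array medians were 5.67 to 6.05 (log2) for the first 3 batches but 4.54 to 4.83 for the last 2, and levels were therefore compared within a batch alone. A level here is relative to all RNA on the array, so fewer transcripts per cell and a change in the other RNA cannot be told apart. In the untreated cultures 8 of 9 epithelial markers and 0 of 9 leukocyte markers had a mean rank in the upper part of all genes, above the 50th percentile. The count was 3 of 7 for ovarian lineage markers, 1 of 8 for endothelial and 1 of 8 for fibroblast markers. PAX8, the lineage marker with the highest mean rank, lay below that percentile in 11 of 46 lines and EPCAM in 10.

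p53 is a transcription factor that accumulates after DNA damage, and several of its target genes encode proteins that switch it off again. MDM2 is the ubiquitin ligase that marks p53 for degradation. MDM4 is its relative, which pairs with MDM2 and covers the activation domain of p53 while having little ligase activity of its own. PPM1D, also called WIP1, is a phosphatase that removes damage-induced phosphates from p53 and from the kinases upstream of it. CCNG1 encodes cyclin G1, which recruits the phosphatase PP2A to MDM2. MDM2, PPM1D and CCNG1 are textbook p53 targets, whereas MDM4 is chiefly known for regulation of its splicing and protein stability.

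The DNA before their transcription starts is shown as a description, and a link of its letters to the changes below was not tested. The 250 bases before a RefSeq start are given 5′ to 3′ on the plus strand of GRCh38.p14, in lower case. Capitals in MDM2 mark a match to the p53 response element, and capitals in PPM1D mark the letters TGACGTCA, to which CREB proteins can bind. The MDM2 window precedes the downstream start, the promoter that is known to respond to p53.
MDM2, chr12:68808774-68809023: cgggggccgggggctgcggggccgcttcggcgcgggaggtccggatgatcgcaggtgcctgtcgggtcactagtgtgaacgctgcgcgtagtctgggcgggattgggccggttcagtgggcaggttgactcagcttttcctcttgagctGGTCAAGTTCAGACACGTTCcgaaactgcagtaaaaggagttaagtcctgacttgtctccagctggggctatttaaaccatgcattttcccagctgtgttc
PPM1D, chr17:60599943-60600192: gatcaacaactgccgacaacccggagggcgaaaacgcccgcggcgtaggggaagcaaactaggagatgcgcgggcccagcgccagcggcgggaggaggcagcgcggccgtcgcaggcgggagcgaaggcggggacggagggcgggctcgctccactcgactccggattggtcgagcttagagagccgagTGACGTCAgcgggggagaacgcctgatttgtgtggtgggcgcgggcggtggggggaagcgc
CCNG1, chr5:163437321-163437570: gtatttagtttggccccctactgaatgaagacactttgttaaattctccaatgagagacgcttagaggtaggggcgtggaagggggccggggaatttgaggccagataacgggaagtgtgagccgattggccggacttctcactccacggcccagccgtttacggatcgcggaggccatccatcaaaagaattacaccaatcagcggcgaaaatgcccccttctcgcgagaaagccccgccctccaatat
MDM4, chr1:204516156-204516405: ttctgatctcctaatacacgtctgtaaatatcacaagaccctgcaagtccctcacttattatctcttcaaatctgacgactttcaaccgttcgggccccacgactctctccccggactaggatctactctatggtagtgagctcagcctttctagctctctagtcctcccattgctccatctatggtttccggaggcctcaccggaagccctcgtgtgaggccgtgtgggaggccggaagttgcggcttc

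The p53 response element was searched as its consensus of 20 bases, a pair of decamers with no spacer, keeping the core C and G of each decamer and allowing up to 3 mismatches elsewhere. The consensus reads the same on both strands. MDM2 held 1 match, at chr12:68808923-68808942 with 2 mismatches, which begins at position -101 from the start. At up to 2 mismatches 0.285% of the 35116 RefSeq windows of 300 bases held a match, and at up to 3 mismatches 1.12%. MDM2 has 4 such windows. A pair of them, whose starts lie close together, hold this same match, and the pair around the upstream start held none, nor did the windows of PPM1D, CCNG1 and MDM4. TGACGTCA occurred in PPM1D alone among the members and in 1.85% of all windows. A match is a description of letters. Elements outside these windows, or inside them without a core C or G, were not searched, so unmarked letters can hold a p53 element.

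After cisplatin PPM1D and MDM2 rose over the 46 lines, while MDM4 and CCNG1 did not pass the test. PPM1D rose by 0.44 ± 0.063 (log2, SE, n = 46 lines), or 1.36-fold, and was higher in 39 of 46 lines. It stood at rank 23 of all genes by p, with an adjusted p of 3.85e-06 (limma on 1 difference per line, Benjamini-Hochberg over all genes, here and below). MDM2 rose by 0.23 ± 0.067, or 1.17-fold, and was higher in 28 of 46 lines (limma adjusted p = 0.020). CCNG1 had a mean change of -0.02 ± 0.056, with 23 lines higher and 23 lower (limma adjusted p = 0.905). Its 95% interval, from -0.13 to 0.10, bounds the mean change on either side. MDM4 had a mean change of -0.19 ± 0.076 and was lower in 32 of 46 lines (limma adjusted p = 0.123). At an adjusted p under 0.05, the threshold for a call throughout, 4.98% of all genes rose and 4.72% fell, and the median change of all genes was -0.01. The MDM2 call did not hold with related lines averaged to 1 unit each (39 units), where its change was 0.17 (limma adjusted p = 0.088). Joined were Hey, HeyA8 and HeyC2, A2780 and A2780cisR, DOV13, DOV13A and DOV13B, A2008 and C13, and RMG-I and RMG-II. RMG-I and RMG-II, with MDM2 changes of 0.71 and 0.87, were joined by name alone, while the SKOV lines were not joined. No fit with averaged units kept RMG-I and RMG-II apart. With A2008 and C13 kept as separate units (40 units), an alternative added after the data were seen, the MDM2 change was 0.19 (limma adjusted p = 0.055). PPM1D was called with 39 units, at 0.40 (limma adjusted p = 6.65e-05), and with 40 units, at 0.40 (limma adjusted p = 3.89e-05).

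**Figure D1:**
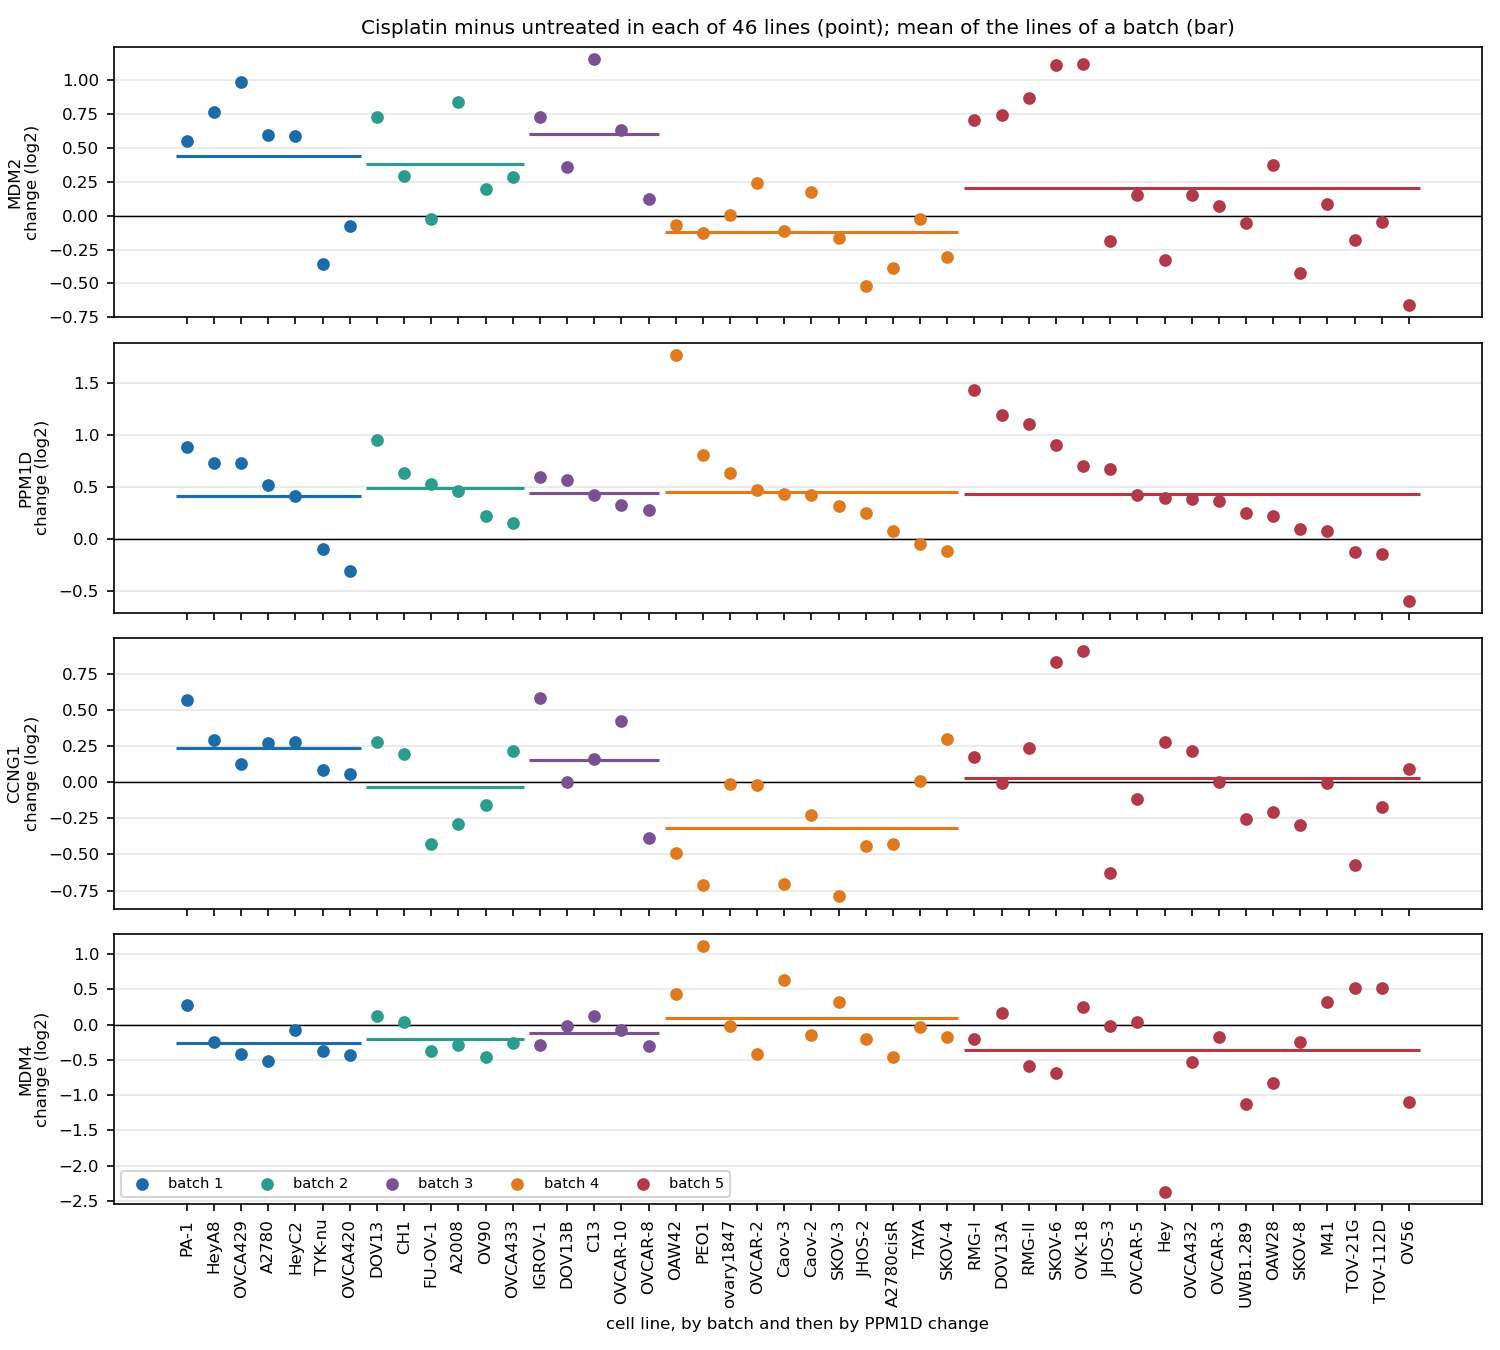
Change (log2, cisplatin minus untreated) of MDM2, PPM1D, CCNG1 and MDM4 in each of 46 lines, coloured by batch and ordered within a batch by the PPM1D change. Each bar is the mean of the lines of a batch. The PPM1D bars lie between 0.41 and 0.49 in every batch, whereas the MDM2 bar is at -0.12 in batch 4 and 0.60 in batch 3.

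The lines differed widely around these means. PPM1D changes ran from -0.59 in OV56 to 1.77 in OAW42, with a median of 0.42. MDM2 changes ran from -0.66 in OV56 to 1.15 in C13, with a median of 0.15. CCNG1 changes ran from -0.79 in SKOV-3 to 0.91 in OVK-18. MDM4 had the widest range, from -2.37 in Hey to 1.11 in PEO1. All lines named here but C13 have 1 culture an arm within their batch.

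The batch means of PPM1D lay close together, and those of the other members differed in sign. The mean PPM1D change of the lines of batches 1 to 5 was 0.41, 0.49, 0.44, 0.46 and 0.43. For MDM2 these means were 0.44, 0.38, 0.60, -0.12 and 0.21, and only 3 of the 11 lines assigned to batch 4 were higher. For CCNG1 they were 0.24, -0.03, 0.15, -0.32 and 0.03, with all 7 lines of batch 1 higher and 9 of 11 of batch 4 lower. For MDM4 they were -0.26, -0.20, -0.11, 0.10 and -0.35. The F test of equal change over batches called 0 genes (0%) by limma, with 699 at an unadjusted p under 0.05. MDM2 had an unadjusted p of 0.0123 and CCNG1 of 0.0184, both with an adjusted p of 1 (limma). The lines are nested in the batches, so batch and line cannot be told apart. Over the 18 lines of batches 1 to 3 alone CCNG1 had a mean of 0.13 (limma adjusted p = 0.259), and MDM4 fell by 0.20 (limma adjusted p = 0.023). Over the 28 lines of batches 4 and 5 alone MDM2 had a mean of 0.08 (limma adjusted p = 0.705), against 0.47 in batches 1 to 3. The 11 housekeeping genes had a mean change of -0.14 in batch 4 and -0.10 in batch 5, against -0.01 to 0.02 in batches 1 to 3. Their part in the batch values of the members was not tested.

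The 18 replicated lines allow a test inside each line, in 1 limma model with a shared spread per gene and 71 residual degrees of freedom. PPM1D rose in 14 of 18 lines and fell in 1. MDM2 rose in 10 and fell in none. CCNG1 rose in 3 and fell in 2. MDM4 rose in none and fell in 4. In each of the 10 lines in which MDM2 rose, PPM1D rose as well.

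The line with the largest MDM2 rise was C13, where the 3 untreated cultures read 8.43, 8.46 and 8.52 and the treated ones 9.58, 9.71 and 9.59. The arms lay apart by more than their width, and the change was 1.15 ± 0.12 (SE, limma adjusted p = 1.05e-11), or 2.23-fold. In OVCA429 the untreated cultures read 10.71, 10.70 and 10.67 and the treated ones 11.62, 11.68 and 11.75. This was a rise of 0.99 ± 0.12 (limma adjusted p = 1.35e-08). The other rises, in A2008, HeyA8, DOV13, IGROV-1, OVCAR-10, A2780, HeyC2 and PA-1, lay between 0.55 and 0.84. The OVCAR-10 rise rests on 1 culture. Its treated cultures read 10.96, 10.01 and 10.05 against 9.65, 9.76 and 9.73 untreated, and without treated culture 1 the change of 0.32 was not called (limma adjusted p = 0.491). Here and below a culture is left out by refitting without that culture number in the same arm of all replicated lines. The other lines then have fewer cultures as well, so a lost call alone does not show that it rested on the named culture. TYK-nu was at the other end, with 9.68, 9.10 and 8.98 untreated and 8.87, 8.97 and 8.86 treated. The treated cultures all lay below the untreated ones there, but the change of -0.36 ± 0.12 did not pass (limma adjusted p = 0.38).

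For PPM1D the largest rise among replicated lines was in DOV13, from 8.69, 8.66 and 8.84 untreated to 9.67, 9.72 and 9.63 treated. The arms were separated by more than their width, with a change of 0.95 ± 0.096 (SE, limma adjusted p = 1.75e-11), or 1.93-fold. PA-1 rose by 0.88 ± 0.096, from 8.89, 8.81 and 8.74 to 9.46, 9.80 and 9.83 (limma adjusted p = 1.05e-10). OVCA420 moved the other way, with 8.98, 8.86 and 8.68 untreated and 8.60, 8.44 and 8.56 treated. All its treated cultures lay below all untreated ones, and the fall of 0.31 on the log2 scale was called (limma adjusted p = 0.023). The OVCA420 call was lost without untreated culture 1 or 2 or treated culture 2 or 3, where the change was -0.24, -0.30, -0.26 and -0.32. With only the 2 cultures that stand apart left out (treated culture 3 of OVCA420 and treated culture 1 of OVCAR-10) it was called (limma adjusted p = 0.041). The smallest called rises were 0.28 in OVCAR-8 and 0.32 in OVCAR-10. The OVCAR-8 call was lost without any 1 culture other than treated culture 1 (0.24 to 0.30). The OVCAR-10 call was lost without any untreated culture or treated culture 1 (0.24 to 0.38), and the HeyC2 call (0.42) without untreated culture 2 (0.37, limma adjusted p = 0.080). TYK-nu, OV90 and OVCA433 were not called, at -0.09, 0.22 and 0.20.

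**Figure D2:**
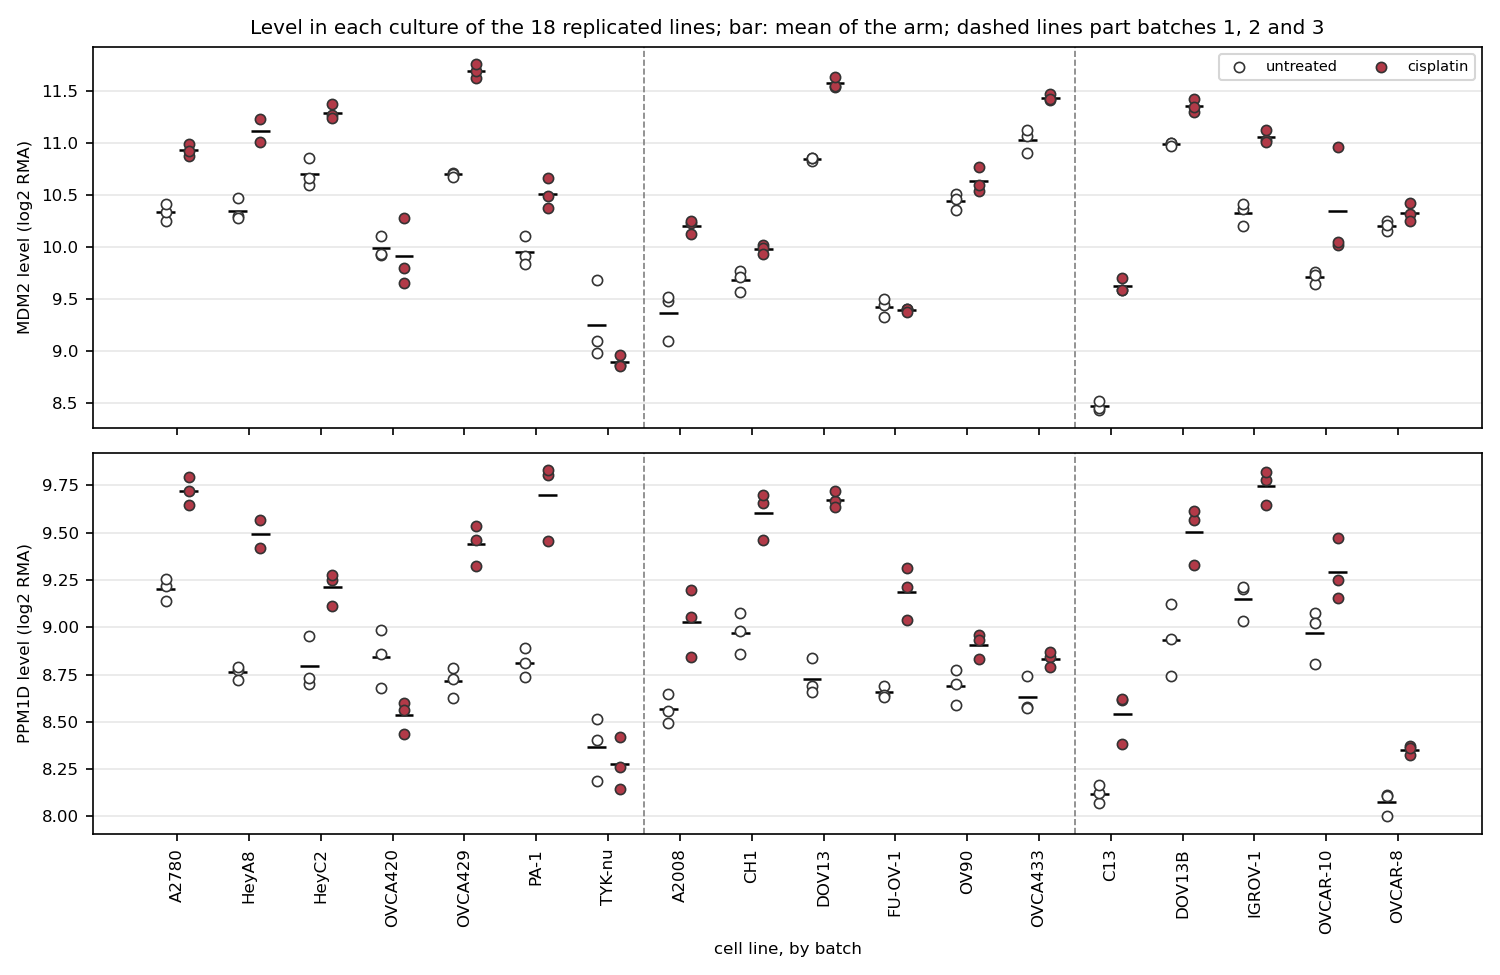
Log2 level of MDM2 (top) and PPM1D (bottom) in each culture of the 18 replicated lines, untreated (open) and after cisplatin (filled), with the mean of each arm as a bar and dashed lines between batches. The treated points sit above the untreated ones in most lines, and in OVCA420 the treated PPM1D points sit below.

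CCNG1 rose in IGROV-1, PA-1 and OVCAR-10. IGROV-1 cultures read 10.46, 10.53 and 10.62 untreated and 11.11, 11.06 and 11.17 treated, a rise of 0.58 ± 0.11 (SE, limma adjusted p = 0.000204). PA-1, the line with the highest untreated CCNG1 level of batch 1, rose from 11.33, 11.08 and 11.32 to 11.80, 11.81 and 11.82. Its change was 0.57 ± 0.11 (limma adjusted p = 0.000102). CCNG1 fell by 0.43 in FU-OV-1, from 10.55, 10.46 and 10.64 to 10.03, 10.15 and 10.19 (limma adjusted p = 0.00162), and by 0.39 in OVCAR-8 (limma adjusted p = 0.00981). In both lines PPM1D rose, so these members moved in opposite directions there. The OVCAR-10 call (0.42) was lost without any untreated culture or treated culture 1 (0.33 to 0.46), and the OVCAR-8 call without untreated culture 2 or 3 or treated culture 1 (-0.40, -0.33 and -0.34). In OVCA420 treated culture 3 stood apart from the others at 9.48, against 8.69 and 8.49, and untreated cultures read 8.99, 8.76 and 8.75. The CCNG1 change of that line was 0.05 with this culture and -0.24 without it, and neither was called. Without it and treated culture 1 of OVCAR-10, CCNG1 was called higher in 6 lines in place of 3.

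MDM4 fell in A2780, OV90, OVCA420 and FU-OV-1. In A2780 it read 9.27, 9.43 and 9.49 untreated and 8.98, 8.85 and 8.80 treated, with no overlap. The change was -0.52 ± 0.13 (SE, limma adjusted p = 0.00979), or 0.697-fold. In OV90 it read 8.84, 8.90 and 9.07 untreated and 8.60, 8.51 and 8.32 treated (-0.46 ± 0.13, limma adjusted p = 0.036). OVCA420 changed by -0.42 and FU-OV-1 by -0.38, where 1 treated culture (7.11) lay inside the untreated range. Each of these 4 calls was lost when some culture number of 1 arm was left out in all replicated lines at once. For A2780 this was untreated culture 2 or 3 or treated culture 3 (-0.50, -0.47 and -0.48). For OV90 it was untreated culture 2 or 3 or treated culture 2 or 3 (-0.47, -0.39, -0.47 and -0.38). For OVCA420 it was untreated culture 1 or treated culture 2 (-0.30 and -0.36). For FU-OV-1 it was untreated culture 3 or treated culture 1 or 3 (-0.28, -0.22 and -0.33). The highest MDM4 change of a replicated line, 0.27 in PA-1, did not pass (limma adjusted p = 0.127).

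**Figure D3:**
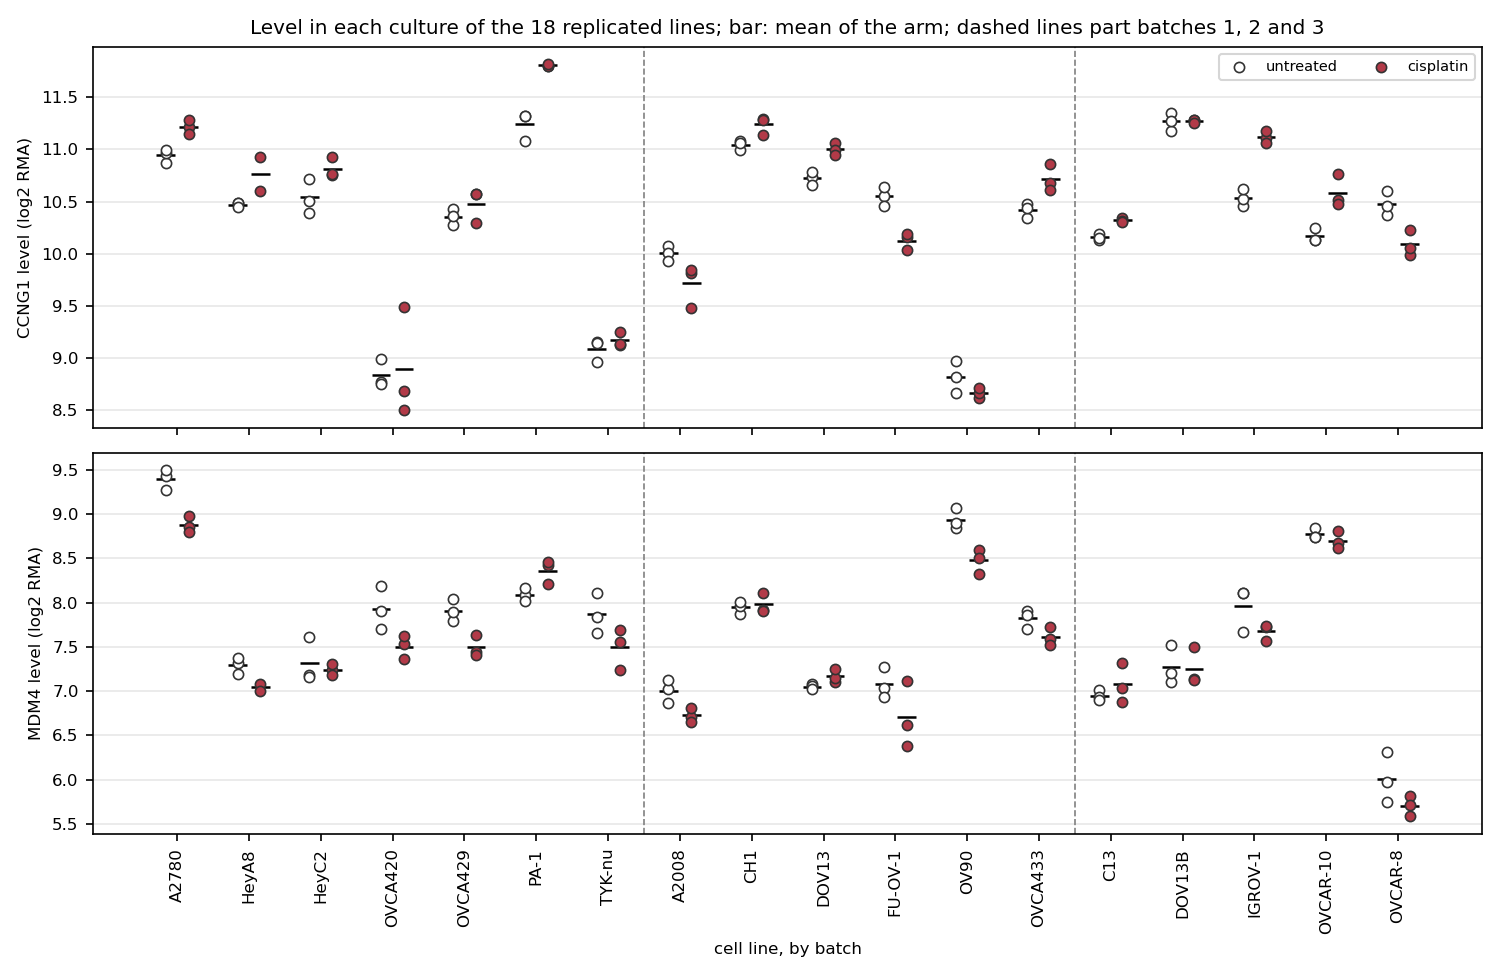
Log2 level of CCNG1 (top) and MDM4 (bottom) in each culture of the 18 replicated lines, untreated (open) and after cisplatin (filled), with arm means as bars. CCNG1 arms part upward in IGROV-1 and PA-1 and downward in FU-OV-1, and MDM4 arms overlap or part downward in most lines.

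The members' calls are read here against the share of all genes called in the same line, in either direction. In FU-OV-1 27.8% of genes were called and 3 of the 4 members (PPM1D up, MDM4 and CCNG1 down). In PA-1 it was 22.8% and 3 members, MDM2, PPM1D and CCNG1, all up. C13 (17.7%) and HeyA8 (13.7%) each had MDM2 and PPM1D up. OVCAR-8 (13.4%) had PPM1D up and CCNG1 down, and OVCA420 (11.5%) had PPM1D and MDM4 down. IGROV-1 (6.96%) and OVCAR-10 (4.18%) had MDM2, PPM1D and CCNG1 up. A2008 (5.15%), HeyC2 (5.13%), OVCA429 (3.9%) and DOV13 (3.31%) had MDM2 and PPM1D up. A2780 (3.53%) had MDM2 and PPM1D up and MDM4 down. OV90 (2.92%) had MDM4 down alone. CH1 (1.98%) and DOV13B (1.46%) had PPM1D up alone. OVCA433 (2.68%) and TYK-nu (0.076%) had 0 members called, with 494 and 14 genes called in all. In OVCA433 MDM2 was called higher without dim genes (limma adjusted p = 0.030), and MDM2 (0.0040) and CCNG1 (0.029) without the cultures that stand apart.

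The size of the change differed between the 18 replicated lines for all 4 members, as it did for 51% of all genes by the same F test. F was 10.8 for PPM1D (limma adjusted p = 3.01e-12), 10.02 for MDM2 (1.41e-11), 6.93 for CCNG1 (2.12e-08) and 3.03 for MDM4 (0.00168). The MDM4 call was lost without the cultures numbered 2, at F = 2.00 (limma adjusted p = 0.114).

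Among single-culture lines, a change was set beside the largest difference between cultures of any 1 arm of a replicated line. The replicated arms all lie in other batches, whose array medians were higher. This limit is therefore borrowed and does not measure the scatter of the single-culture lines themselves. The largest difference was 0.38 for PPM1D, in untreated DOV13B. It was exceeded upward in 15 of the 28 lines, led by OAW42 (6.67 untreated, 8.43 treated), RMG-I (6.18 and 7.60), DOV13A (6.49 and 7.68) and RMG-II (6.58 and 7.68), and downward in OV56 (5.32 and 4.73). For MDM2 the largest difference between cultures was 0.94, in treated OVCAR-10, and OVK-18 (8.95 untreated, 10.07 treated) and SKOV-6 (7.73 and 8.84) exceeded it. That OVCAR-10 culture and treated culture 3 of OVCA420 stand apart, so the limit was also taken without both, as an addition after the data were seen. It was then 0.70 for MDM2, in untreated TYK-nu, and RMG-II, DOV13A and RMG-I exceeded it as well. For MDM4 it was 0.73, in treated FU-OV-1. Hey (7.06 and 4.68), UWB1.289 (7.46 and 6.33), OV56 (7.91 and 6.82) and OAW28 (7.78 and 6.95) lay below it, and PEO1 (7.90 and 9.01) above. For CCNG1 it was 0.99, in treated OVCA420, and 0 of the 28 lines exceeded it. Without the cultures that stand apart it was 0.37, in treated A2008, and 10 lines exceeded it. OVK-18 (0.91) and SKOV-6 (0.83) lay above, and 8 lay below, from SKOV-3 (-0.79) to A2780cisR (-0.43). The limits of PPM1D and MDM4 did not move. The single-culture lines have no replicate, so their own scatter is not known and none of their changes was tested.

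Related lines allow a closer look at the same change. The changes of HeyC2 and HeyA8 differed by -0.18 for MDM2 (95% interval -0.55 to 0.19) and -0.32 for PPM1D (-0.60 to -0.03). Neither passed the threshold over all genes (limma adjusted p = 0.732 and 0.329), while 0.755% of genes did. The changes of C13 and A2008 differed by 0.32 for MDM2 (-0.03 to 0.67), 0.41 for MDM4 (0.04 to 0.78), -0.04 for PPM1D (-0.31 to 0.23) and 0.45 for CCNG1 (0.14 to 0.77). None of these was called (lowest limma adjusted p = 0.075, for CCNG1), against 4.82% of genes. The CCNG1 difference was called without the cultures that stand apart (limma adjusted p = 0.013) and without dim genes (0.049). DOV13B and DOV13 differed by -0.37 for MDM2 (-0.71 to -0.02) and -0.38 for PPM1D (-0.65 to -0.10), with 0 of the 4 members and 0.0814% of all genes called. These intervals are not adjusted for the number of genes. HeyC2 and HeyA8 share batch 1, but C13 and DOV13B lie in batch 3 and A2008 and DOV13 in batch 2. The contrasts of the last 2 pairs compare changes taken within different batches, and batch and line cannot be told apart in them. A2780cisR has 1 culture an arm, in batch 4, and is only set beside A2780 of batch 1. The MDM2 change was 0.59 in A2780 and -0.39 in A2780cisR, whose single cultures read 9.56 untreated and 9.17 treated. The MDM4 changes were -0.52 and -0.45. OVCA433, measured in both batch 2 and batch 4, had MDM2 changes of 0.40 and -0.06 and PPM1D changes of 0.20 and 0.01.

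The signs of the changes were then counted line by line. All 28 lines with higher MDM2 also had higher PPM1D, which was higher in 39 of all 46 lines. In 11 lines PPM1D was higher and MDM2 lower, and in 7 both were lower. MDM4 was lower in 20 of the 28 lines with higher MDM2 and in 32 of all 46, so this count is not read as opposed movement. The MDM2 change exceeded the MDM4 change in 35 of 46 lines, and the PPM1D change exceeded it in 40. MDM2, PPM1D and CCNG1 were all higher in 17 lines. In 12 of these 17 MDM4 was lower, again beside 32 of all 46 lines. All 4 were higher in 5 lines and all 4 lower in none. These counts have no test.

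The changes of MDM2 and PPM1D had r = 0.54 (Spearman's rho 0.59, 46 lines), and r = 0.57 without OVK-18 and C13, the lines farthest from the MDM2 median. The correlation was 0.63 in the 18 lines of batches 1 to 3 and 0.59 in the 28 others. MDM2 and CCNG1 had r = 0.61 (rho 0.57, and 0.57 without the same pair of lines), with 0.40 and 0.62 in these sets. PPM1D and CCNG1 had r = 0.14 (rho 0.21, and r = 0.29 without OV56 and OAW42), and MDM2 and MDM4 r = 0.08 (rho -0.02). In batches 1 to 3 and in batches 4 and 5, PPM1D and CCNG1 had 0.31 and 0.10, and MDM2 and MDM4 0.37 and 0.06. MDM4 and CCNG1 had 0.44 in batches 1 to 3 and -0.42 in batches 4 and 5, so no pooled value describes them. All genes of a line come from the same arrays, so these values are descriptions and carry no p.

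**Figure D4:**
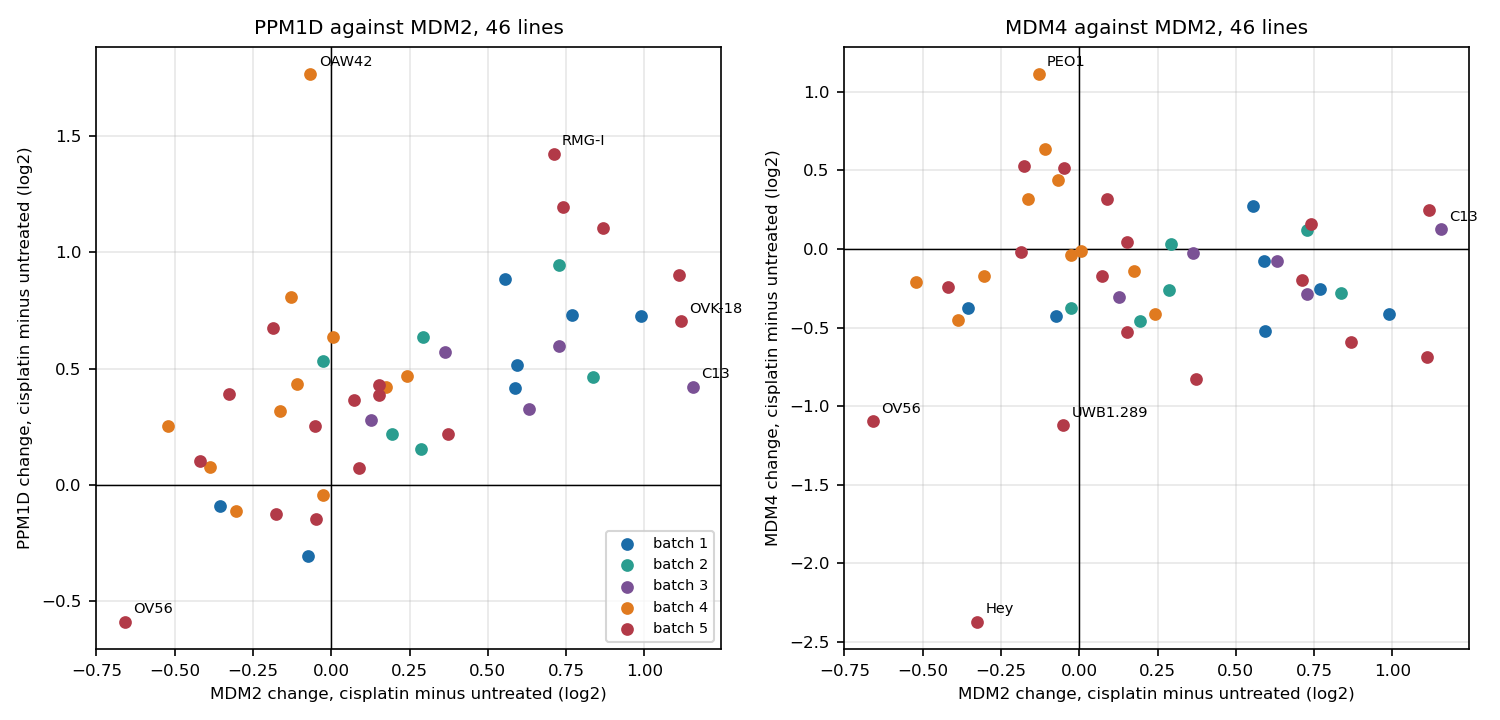
Change of PPM1D (left) and MDM4 (right) against the change of MDM2 in each of 46 lines (log2, cisplatin minus untreated), coloured by batch, with the lines at the extremes named. No line lies in the lower right of the left panel, where MDM2 would be higher and PPM1D lower.

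The members were then set beside other p53 targets, a textbook list whose 35 measured genes were compared over the same 46 lines. Of these, 27 rose, 0 fell and 8 did not pass, and their median change was 0.31 against -0.01 for all genes. GDF15, a secreted stress cytokine, had the largest change at 0.68 ± 0.12. CDKN1A encodes p21, an inhibitor of cyclin-dependent kinases. It rose by 0.63 ± 0.083 and was higher in 39 lines. PMAIP1, a pro-apoptotic BCL2 family member, rose by 0.62 ± 0.086, and TRIM22 by 0.56 ± 0.11 (limma adjusted p at most 0.000536 for these 4). PPM1D at 0.44 and MDM2 at 0.23 lie within the range of this list, whereas CCNG1 and MDM4 lie below its lowest member, BBC3, at 0.05. Within a replicated line the number of these 35 genes that rose ran from 1 in TYK-nu and 3 in OVCA433 to 28 in HeyA8. Of the 38 listed genes 29 have a promoter window, and 8 of these (27.6%) hold a p53 response element match by the rule above, against 1.37% of all genes with a window. The list was made of known p53 targets, so this difference is a description and was not tested. The 8 include a listed gene that was not measured.

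**Figure D5:**
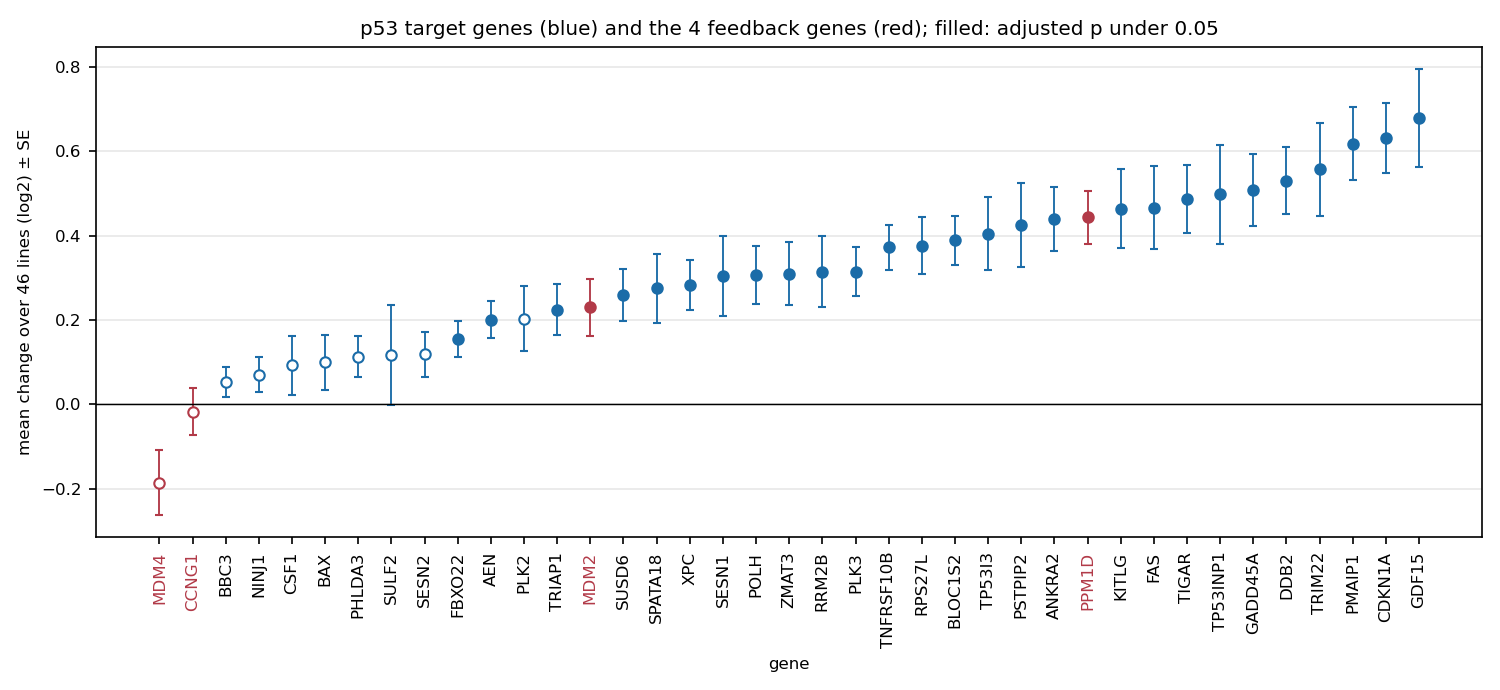
Mean change over 46 lines (log2, cisplatin minus untreated) with SE for the 35 p53 target genes (blue) and the 4 feedback genes (red), filled where the adjusted p is under 0.05. PPM1D and MDM2 lie among the targets, and CCNG1 and MDM4 lie to the left of all of them.

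The mean change of the 35 targets had r = 0.68 with PPM1D (rho 0.60, and 0.59 without OV56 and OAW42) and r = 0.65 with MDM2 (rho 0.73, and 0.64 without OVK-18 and C13). It had r = 0.28 with CCNG1 (rho 0.38) and 0.21 with MDM4 (rho 0.10). In batches 1 to 3 and in batches 4 and 5 these values were 0.55 and 0.76 for PPM1D, 0.77 and 0.54 for MDM2, 0.53 and 0.12 for CCNG1, and 0.26 and 0.22 for MDM4. The change of CDKN1A alone had r = 0.36 with MDM2, 0.29 with PPM1D, 0.15 with MDM4 and -0.16 with CCNG1. In the same sets of batches it had 0.69 and 0.07 with MDM2, and 0.36 and 0.29 with PPM1D. With MDM4 it had -0.15 and 0.23, and with CCNG1 0.12 and -0.44. Over all 18416 other genes the gene most like MDM2 in its change was SESN1 (r = 0.75), followed by HSDL2, TMEM68, EIF3E and TMEM30A (0.67 to 0.69). PPM1D was most like FBXO22 (0.73), SESN1 (0.68), TIGAR (0.68), FBXW7 (0.67) and OSBPL3 (0.65). SESN1, FBXO22 and TIGAR are on the target list, and 13 of its 35 genes stood among the 1% of genes most like PPM1D, against 6 for MDM2, 3 for CCNG1 and 0 for MDM4. CCNG1 was most like TMEM30A (0.74), SH3BGRL, AP3S1, LTA4H and PRCP (0.71 to 0.74), and MDM4 like AVL9 (0.85), CHD9, WDR35, MTO1 and GPATCH8 (0.80 to 0.85). None of the 20 genes most like a member in its change lay within 20 genes of it on its chromosome.

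The rest of the circuit was measured with the same fit, beside 4.98% of genes rising and 4.72% falling. Among 17 partners of MDM2 and MDM4, 0 rose and 3 fell. They are USP7, the deubiquitinase of both proteins (-0.19), NCL, nucleolin (-0.13), and NPM1, nucleophosmin (-0.11). Of 9 other ubiquitin ligases of p53, 2 rose (TOPORS 0.20, MKRN1 0.13) and 2 fell (COP1 -0.27, UBE4B -0.24). Of 10 kinases of the DNA damage signal, 0 rose and 1 fell, TLK1 (-0.18). Of 14 other phosphatases of the PP2C family that holds PPM1D, 0 rose and 1 fell, PPM1L (-0.27). Of 11 genes for cyclin G2, GAK and PP2A subunits, the partners and relatives of cyclin G1, 0 rose and 1 fell, PPP2R5C (-0.17). Of 7 p53 relatives and binding proteins, 0 rose and 2 fell, USP28 (-0.20) and BRD7 (-0.18). The medians of these 6 lists lay between -0.04 and 0.01. Of 11 housekeeping genes 0 rose and 2 fell, PPIA (-0.21) and PGK1 (-0.19).

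Markers of other cell types were read in the same fit. Over the 46 lines 0 of 8 endothelial and 0 of 8 fibroblast markers were called, and 1 of 9 leukocyte markers rose, LAPTM5 (0.31). Of 9 epithelial markers 2 fell, KRT19 (-0.23) and CLDN3 (-0.19), and 0 of 7 lineage markers were called. The leukocyte marker PTPRC, at a mean rank in the lowest 8.28% of genes, ranked below the 50th percentile in 45 of 46 lines. LAPTM5, the highest of that list, ranked below it in 36 of 46.

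Before treatment the lines of a batch differed in the level of every member, as they did for 86.8% of all genes by the F test within batches 1 to 3. F was 96.0 for CCNG1, 77.3 for MDM4, 67.8 for MDM2 and 21.7 for PPM1D (limma adjusted p at most 2.74e-21). PPM1D had the narrowest range of line means in each of these batches (2.11-fold or less), and 11 of 15 neighbours in its order of lines overlapped in their cultures. The number was 5 of 15 for MDM2, 7 for MDM4 and 5 for CCNG1.

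In batch 1 untreated MDM2 was highest in HeyC2 (10.70) and OVCA429 (10.70), which overlapped, followed by HeyA8 (10.35) and A2780 (10.33), then OVCA420 (9.99) and PA-1 (9.95), each an overlapping pair, and lowest in TYK-nu (9.26). In batch 2 it fell from OVCA433 (11.03) through DOV13 (10.85), OV90 (10.44), CH1 (9.68) and FU-OV-1 (9.43) to A2008 (9.37), and only the last pair overlapped. In batch 3 it ran from DOV13B (10.99) through IGROV-1 (10.33), OVCAR-8 (10.20) and OVCAR-10 (9.71) to C13 (8.47), where IGROV-1 and OVCAR-8 overlapped. The range of batch 3 is 5.73-fold. In batches 4 and 5, with 1 culture a line, it ran from 9.56 (A2780cisR) to 7.44 (ovary1847) and from 9.13 (Hey) to 7.52 (JHOS-3).

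Untreated MDM4 was highest in A2780 in batch 1, at 9.40 ± 0.12 (SD, n = 3), and no culture of PA-1, next at 8.09, overlapped it. OVCA420, OVCA429 and TYK-nu followed at 7.93 to 7.87 without separating, and HeyC2 (7.32) and HeyA8 (7.30) were lowest. OV90 (8.93) led batch 2, ahead of CH1 (7.95) and OVCA433 (7.82), with FU-OV-1, DOV13 and A2008 between 7.08 and 7.01 and overlapping. In batch 3 no neighbours overlapped, from OVCAR-10 (8.77) through IGROV-1 (7.96), DOV13B (7.28) and C13 (6.95) to OVCAR-8 (6.01). That is a 6.80-fold range. A2780cisR (9.31) led batch 4 and SKOV-6 (9.62) batch 5, and Caov-3 (6.23) and Hey (7.06) were lowest.

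Untreated CCNG1 was highest in PA-1 (11.24) and A2780 (10.95) in batch 1, and TYK-nu (9.08) and OVCA420 (8.83) formed an overlapping pair below the rest. In batch 2 it ran from CH1 (11.05) to OV90 (8.82), which stood below every other line. In batch 3 DOV13B (11.27) stood above the other lines, which lay between 10.54 and 10.16. Untreated PPM1D was highest in A2780 in batch 1 (9.20), CH1 in batch 2 (8.97) and IGROV-1 in batch 3 (9.15). TYK-nu (8.37), A2008 (8.57) and OVCAR-8 (8.07) were lowest. IGROV-1, A2008 and OVCAR-8 each overlapped the nearest line in order. The 5 lines of batch 1 between A2780 and TYK-nu overlapped in order from 8.84 to 8.71. In batch 4 A2780cisR, with 1 culture an arm, had the highest untreated level of 12 lines for each of the 4 members. How many of all genes were highest in that line was not counted. In batch 2 A2008 had the lowest mean of 6 for MDM2, MDM4 and PPM1D, but its cultures overlapped those of the nearest line for each.

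Lines measured untreated in more than 1 batch were at like levels relative to the batch mean for some members and not for others. OVCA433 lay 0.90 above the mean of its batch for MDM2 in batch 2 and 0.95 above in batch 4, and 0.16 and 0.17 above for CCNG1. For MDM4 it lay 0.18 and 0.86 above, and for PPM1D at -0.08 and 0.04. PA-1 lay 1.03 and 1.21 above for CCNG1 in batches 1 and 5. Its values were -0.23 and 0.35 for MDM2, 0.12 and 0.95 for MDM4 and 0.03 and 0.49 for PPM1D, and the lines around it differ between these batches. SKOV-3, in batches 4 and 5, lay at -0.29 and -0.14 for MDM2, 0.28 and 0.02 for MDM4, -0.14 and -0.22 for PPM1D and -0.51 and -0.83 for CCNG1.

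The untreated levels, centred within each batch, had r = 0.55 between MDM4 and PPM1D (rho 0.57), 0.39 between MDM2 and PPM1D, 0.36 between MDM2 and CCNG1, 0.19 between MDM2 and MDM4, and -0.01 between MDM4 and CCNG1 over 46 lines. Over all genes the untreated pattern of MDM2 was most like EDA2R (r = 0.70), SESN1 (0.62), TBK1 (0.61), RANBP17 (0.60) and CDKN1A (0.59). That of CCNG1 was most like EDA2R (0.64), SESN1 (0.60), ADHFE1, HS3ST3A1 and TENM4 (0.56 to 0.59). MDM4 was most like FSIP1 (0.79), ELAC1, RALGAPA1, POLI and ZNF473 (0.70 to 0.73), and PPM1D like MTERF2 (0.75), GSTA4, TRMT1L, ZNF287 and BBS4 (0.66 to 0.67). TBK1 lies 22 protein-coding genes from MDM2 on the same chromosome. Within 20 genes of a member lay 1 of the 20 genes most like untreated MDM2 (CAND1), 1 of those most like PPM1D (INTS2) and 0 for MDM4 and CCNG1, with CAND1 and INTS2 named after their values were seen.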

How the data were processed

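Affymetrix arrays of total RNA from 46 ovarian cancer cell lines, untreated or after 48 h of cisplatin, were deposited as log2 values from RMA by the authors, per the submitters' processing notes; the RMA version and grouping of arrays are not given in the sources used here. Of 33297 probe sets, 19460 had 1 gene symbol in the platform annotation, 1754 several and 12083 none listed, and symbols were updated through RefSeq (19429 matched). Each gene is read from its brightest probe set, by the mean of all arrays. Repeat arrays of a culture were averaged, and 0 arrays held identical values. The change of a line is its treated minus untreated mean within a batch, tested against 0 with limma 3.58.1 (R 4.3.3; lmFit and eBayes). Replicated lines were fitted in 1 group-means model. In batch 5 PA-1 and SKOV-3 have no treated partner, and their untreated cultures there entered levels alone. Both fits were tested on simulated data. The number of arrays limits the precision. Alternatives were the probe set, scaling, a dim filter, the prior, weights, lines and cultures left out, and a block on culture number. The members, lists and tests were chosen with earlier results of these data known. Named genes are the members, CDKN1A, up to 4 genes of a list with the largest called change (otherwise the 2 largest) and the 5 genes most like a member. Chosen after their values were seen were BBC3, the lowest target in the plot of target genes, and EPCAM and PTPRC as defining markers. The uncalled examples of this rule were CDH5 (0.10), PECAM1 (-0.07), COL1A1 (0.12), LUM (0.11), PAX8 (-0.20) and FOLR1 (0.12), as mean changes on the log2 scale.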

Additional observations from a re-analysis of the deposited data

Results flagged for a closer look

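Over the lines of batches 1 to 3, 24 sets of line means (4 genes, their change and their untreated level, in 3 batches) were examined for a line far from the rest, and chance alone marks about 1 in 20 such sets. One stood out: untreated MDM4 in A2780, at 9.40, lay above its nearest line, PA-1 (8.09), by a gap of 0.623 of the whole range of the 7 lines. The change with cisplatin differed between the 18 replicated lines, by the F test of the difference itself, for MDM2 (F = 10.02), MDM4 (F = 3.03), PPM1D (F = 10.8) and CCNG1 (F = 6.93), and the same test called 51% of all genes.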

How the results depend on the processing

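PPM1D over all 46 lines kept its direction and call when arrays were centred on the median or upper quartile, or weights or cultures changed. It also kept them when any 1 line was left out (0.41 to 0.47). The call was kept as well with probe sets averaged, dim genes left out or another prior. The change itself could not move there, since each member has 1 probe set and the filter and prior alter p alone. MDM2 kept its direction and call in the same fits (0.21 to 0.25 without a line). MDM4 stayed uncalled without any 1 line (-0.21 without PEO1 to -0.14 without Hey), as did CCNG1 (-0.04 to -9.88e-05). Genes past the threshold ran from 1570 without PEO1 to 2373 without Hey, against 1787 with all lines. With lines weighted by cultures MDM4 was called (-0.19) and CCNG1 was 0.0455. Batches 1 to 3 alone gave MDM4 -0.20, called, and CCNG1 0.13. Batches 4 and 5 alone gave MDM2 0.0794 and 987 genes, equal weights of batches CCNG1 0.0139 and 638 genes, and leaving out batch 4 CCNG1 0.0778 and 627 genes. Related lines averaged gave MDM2 0.17, and 0.19 with A2008 and C13 kept apart, both uncalled. Single batches called neither MDM2 (0.44, 0.38, 0.60, -0.12, 0.21) nor PPM1D (0.41, 0.49, 0.44, 0.46, 0.43); CCNG1 was 0.24, 0.15 and 0.0278 in batches 1, 3 and 5, MDM4 0.10 in batch 4, and 2, 2, 6, 770 and 16 genes passed, with fewer lines in each fit. Each line fitted alone called MDM4 down in 1 line, PPM1D up in 8 and down in 0 and CCNG1 down in 1. Requiring more than a 1.2-fold change left MDM2 up in 4, MDM4 down in 0, PPM1D up in 6 and down in 0 and CCNG1 up in 0 and down in 0. Without the 2 treated cultures that stand apart CCNG1 rose in 6 lines. Elsewhere the cause was not tested.

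Leaving out 1 culture was run as 6 fits, each without 1 culture number of 1 arm in all replicated lines at once. MDM2 rose in 9 to 10 lines and fell in 0, MDM4 rose in 0 and fell in 1 to 4, PPM1D rose in 11 to 13 and fell in 0 to 1, and CCNG1 rose in 2 to 4 and fell in 1 to 3. Without a culture number, F for the change was 5.41 to 10.7 (MDM2), 2.00 to 2.79 (MDM4), 5.40 to 10.5 (PPM1D) and 3.77 to 7.56 (CCNG1), and F for the untreated level 32.5 to 85.3, 42.2 to 61.1, 10.001 to 20.7 and 53.4 to 84.3. Culture numbers do not pair the arms: 7 of 53 same-numbered pairs had a correlation of deviations over 0.1 (median -0.03). With the culture number as a replicate block MDM2 rose in 10 lines, MDM4 fell in 4, PPM1D rose in 12 and fell in 1 and CCNG1 rose in 3 and fell in 2, with F of 9.06 (MDM2), 3.19 (MDM4), 9.85 (PPM1D) and 6.26 (CCNG1). The likeness of MDM2 to SESN1 was 0.66 in batches 1 to 3, that of MDM4 to AVL9 0.72, and that of PPM1D to FBXO22 0.66 by Spearman.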
